A study of Vulpes vulpes with 48 samples.

Results

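The expression of 6 genes, given by dog Ensembl identifiers, was followed across brain libraries of silver foxes (Vulpes vulpes): ENSCAFG00000017976, ENSCAFG00000016368, ENSCAFG00000002061, ENSCAFG00000005621, ENSCAFG00000015302 and ENSCAFG00000004011. They were chosen by the measured difference between the lines, which was lower (tame minus aggressive) in basal forebrain than in prefrontal cortex. They are 6 of the 12695 genes counted in both regions. The foxes belonged to 2 lines, one bred for tameness and the other for aggression. All were males aged 1.5 years, and each library was made from poly(A) RNA of the right prefrontal cortex or the right basal forebrain. Of 48 labelled libraries, 46 were analysed: 12 aggressive cortex, 12 tame cortex, 12 aggressive forebrain and 10 tame forebrain libraries. The tame forebrain samples labelled ID488 and ID490 were not analysed here. The labels name no treatment, batch or generation of selection and do not say which cortex and forebrain libraries share a fox.

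The silver fox lines descend from farmed foxes bred for their response to humans, and are a standard animal model of inherited tameness and aggression. The prefrontal cortex takes part in the control of social and emotional behaviour. The basal forebrain holds cholinergic and other projection neurons that supply the cortex and act on arousal and attention. A difference between lines that depends on region means that a gene's expression separates tame from aggressive foxes differently in the 2 tissues, which a comparison within 1 tissue cannot show.

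The files do not pair dog identifiers with gene names, and 0 of the 6 identifiers matched the fox gene table at hand (RefSeq, assembly VulVul3). No symbol, function, position or sequence is therefore given, and the dissected regions could not be checked against marker genes. All 6 genes had whole counts in every library and shared their values with no other gene. Levels are given in CPM (counts per 1000000 counts of a library, with library sizes scaled by TMM, the trimmed mean of M-values), on 1 scale for the 4 groups. CPM is not corrected for gene length, so levels are compared between libraries and not between genes. In bulk tissue, fewer cells of a type and less RNA per cell cannot be told apart.

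Library totals ran from 6226664 to 17235571 counts in the cortex and from 6248314 to 13648647 counts in the forebrain. Tame cortex libraries ID182, ID186, ID187, ID190 and ID191 stood apart from the other 19 cortex libraries. On a first principal component that held 78.1% of the variance in the cortex, these 5 scored from 50.9 to 159 and the others from -37.7 to -14.1. Line differences in the cortex, region dependence and differences between regions are therefore given with and without these 5 libraries. They were singled out by their expression and not by a label, so they are not a group of the study. Among cortex libraries, ID187 and ID191 had the lowest TMM factors, 0.704 and 0.726, and the others ran from 0.912 to 0.996. Library sizes are multiplied by this factor, so a lower one raises the CPM of every gene in a library. The part of this scaling in the levels of ID187 and ID191 was not tested.

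The values that chose the genes come first, as a description. Calls on this contrast are not independent of the choice and are given only beside those of all genes. In the joint fit of all 46 libraries (edgeR quasi-likelihood), the region dependence was the line difference in forebrain minus that in cortex. It was estimated at -0.52 on the log2 scale (SE 0.11) for ENSCAFG00000017976, -1.84 (SE 0.45) for ENSCAFG00000016368 and -0.62 (SE 0.15) for ENSCAFG00000002061. It was -0.52 (SE 0.13) for ENSCAFG00000005621, -0.76 (SE 0.19) for ENSCAFG00000015302 and -0.64 (SE 0.17) for ENSCAFG00000004011. The median of the 6 was -0.63, where the median over all 12695 genes was 0.02. None of the genes passed an adjusted p of 0.05, which 0 of 12695 genes did (0% called; smallest adjusted p = 0.327, edgeR with Benjamini-Hochberg adjustment). At an unadjusted p under 0.05, 6 of 6 were called with a negative estimate, beside 11.0% of all genes. That count follows from the way the genes were chosen. DESeq2 called 2 of 12695 genes, 1 of them among the 6, ENSCAFG00000017976 (DESeq2 adjusted p = 0.0205). That call is also not independent of the choice.

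In the order of p-values among genes with a negative region dependence, the 6 held places 1 and 3 to 7. Place 2 was held by ENSCAFG00000006100, which was not among them (-0.65, SE 0.15). The gene after the last member was ENSCAFG00000011225 (-0.33, SE 0.089), against -0.64 for ENSCAFG00000004011, the member just inside.

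**Figure D1:**
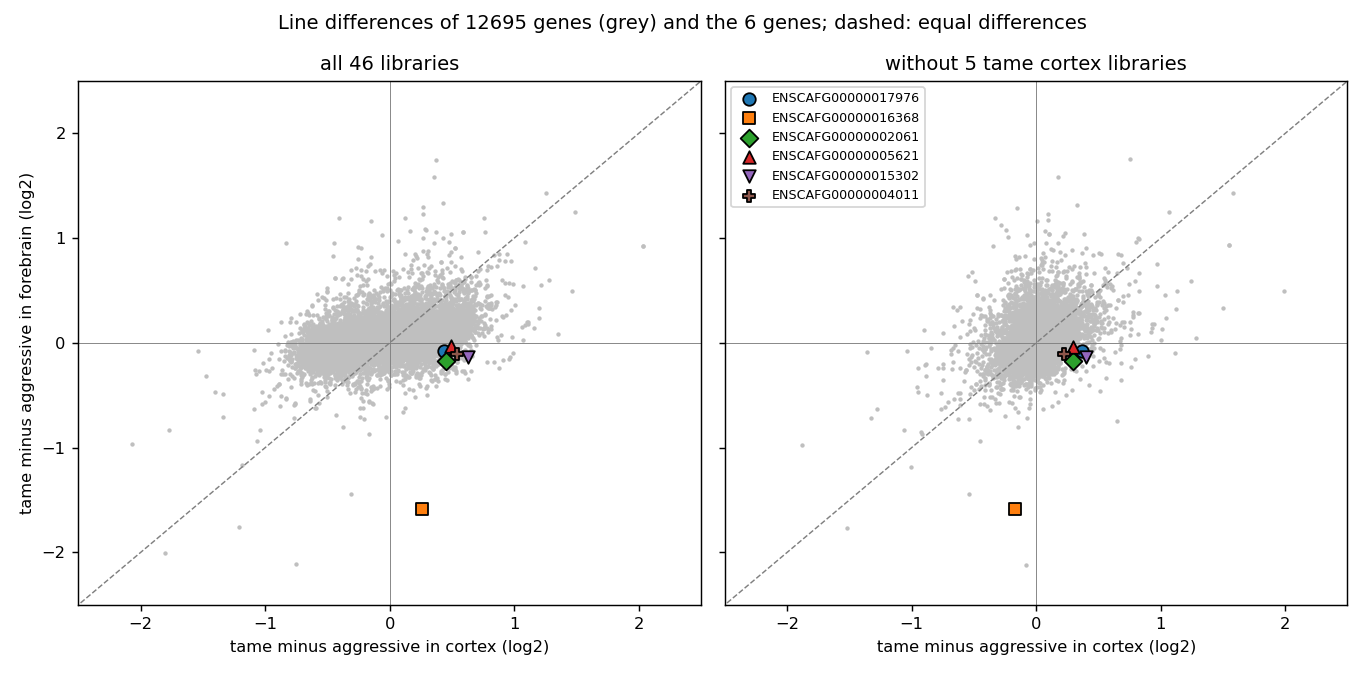
Tame minus aggressive difference in cortex (x axis, log2) against the same difference in forebrain (y axis, log2) from the joint fit, for 12695 genes in grey and the 6 genes as marked symbols, with all 46 libraries (left) and without the 5 tame cortex libraries (right). The axes leave out 2 genes on the left and 3 on the right. The 6 genes lie below the dashed line of equal differences in both panels, and ENSCAFG00000016368 lies far below the others.

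For ENSCAFG00000017976, most tame cortex libraries stood above the aggressive ones and 3 stood among them. Aggressive cortex libraries ran from 46.7 to 55.7 CPM with a median of 50.4. Tame cortex libraries ran from 48.3 to 84.7 CPM with a median of 71.4. In tame cortex, ID183, ID184 and ID185 stood at 51.3, 48.3 and 48.3 CPM, within the aggressive range. The other 9 tame cortex libraries lay between 59.5 and 84.7 CPM, above every aggressive library. Aggressive forebrain libraries ran from 66.7 to 86.1 CPM (median 77.0) and tame forebrain libraries from 59.5 to 88.6 CPM (median 71.7). The forebrain ranges overlapped almost entirely, and most tame cortex libraries reached the forebrain's levels while no aggressive cortex library did.

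Group means of ENSCAFG00000017976 stood in the order aggressive cortex, 50.6 ± 2.42 CPM (SD, n = 12), tame cortex, 68.5 ± 13.6 CPM (SD, n = 12), tame forebrain, 72.3 ± 7.74 CPM (SD, n = 10), and aggressive forebrain, 76.4 ± 5.42 CPM (SD, n = 12). The last 3 lay within 1 SD of their neighbours, taking the larger SD of each pair, and aggressive cortex lay further from tame cortex than that. The line difference was 0.44 (log2, SE 0.095) in the cortex and -0.08 (log2, SE 0.056) in the forebrain. Without the 5 libraries the cortex difference was 0.37 (SE 0.094) and the region dependence -0.45 (SE 0.11). Among the 7 tame cortex libraries then left, 4 lay above the highest aggressive library. This gene had the smallest p of all 12695 genes for region dependence with all libraries and also without the 5. Its region dependence passed an adjusted p of 0.05 when ID183, ID184 or ID185, its lowest tame cortex libraries, was left out alone (adjusted p = 0.0415, 0.0455 and 0.0430, edgeR). The gene was chosen by this same contrast and these libraries lie against its direction, so those calls support nothing.

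**Figure D2:**
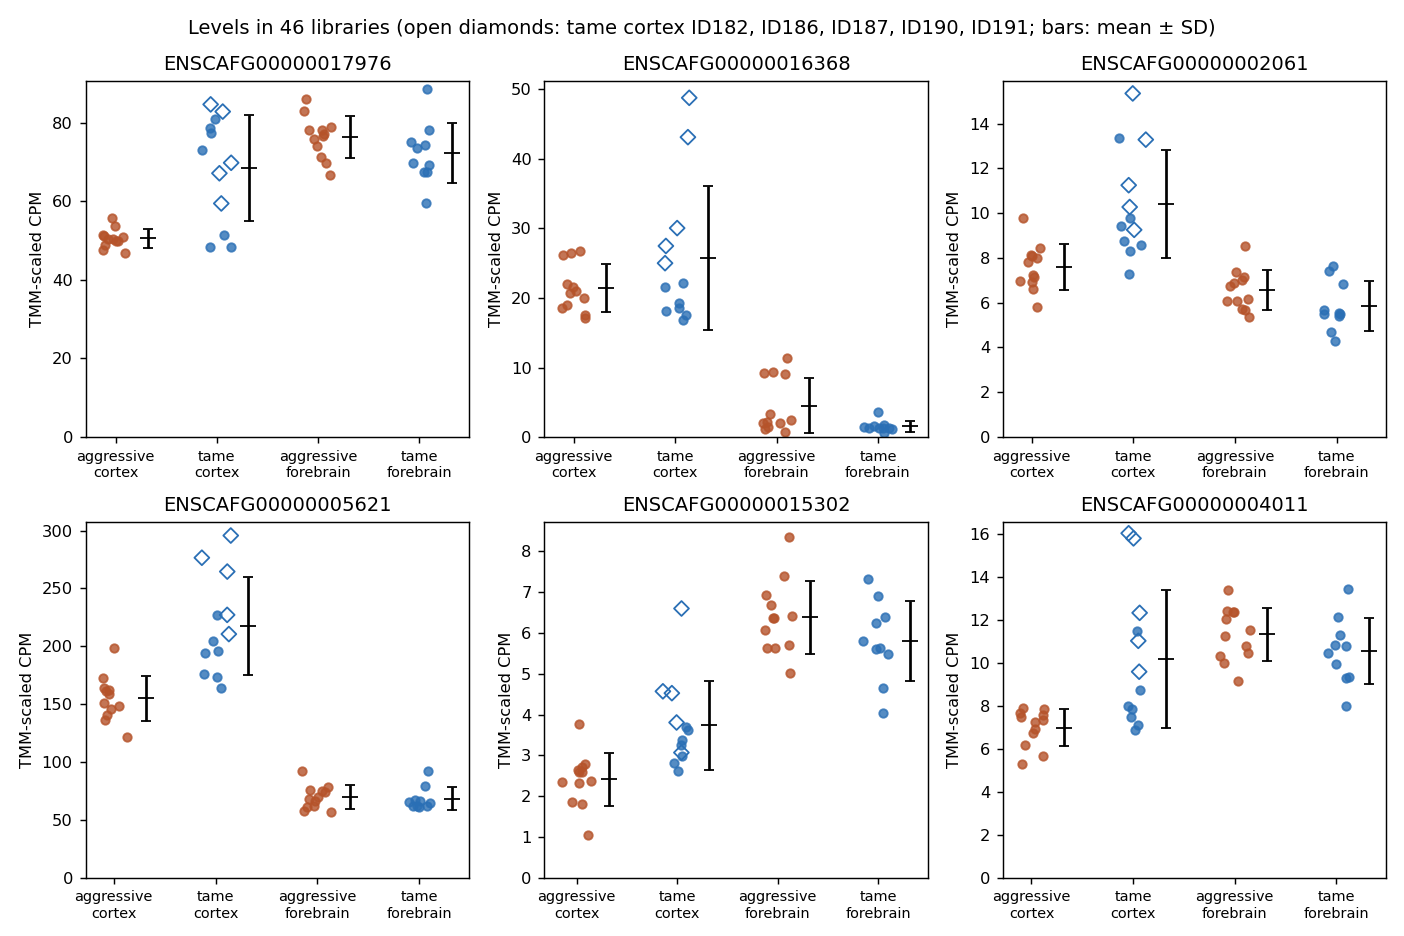
TMM-scaled CPM (y axis, from 0) of the 6 genes in each library of the 4 line and region groups (x axis); points are libraries, open diamonds the 5 tame cortex libraries that stood apart, and black bars the group mean ± SD (n = 12, 12, 12 and 10 from left to right). ENSCAFG00000017976 has 3 tame cortex libraries at the aggressive level, and ENSCAFG00000016368 has 4 aggressive forebrain libraries between 9.11 and 11.4 CPM.

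ENSCAFG00000016368 was much lower in the forebrain than in the cortex. Aggressive cortex libraries ran from 17.1 to 26.8 CPM (median 20.9) and tame cortex libraries from 16.8 to 48.8 CPM (median 21.9). Aggressive forebrain libraries ran from 0.696 to 11.4 CPM (median 2.29), with 7 to 115 counts. Tame forebrain libraries ran from 0.570 to 3.64 CPM (median 1.30), with 6 to 28 counts. Every forebrain library lay below every cortex library.

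The line difference of ENSCAFG00000016368 in the forebrain came with 4 aggressive libraries. ID532, ID534, ID595 and ID538 held 9.11, 9.39, 9.26 and 11.4 CPM, and the other 8 held at most 3.33 CPM. The 4 were singled out after their values were seen. Group means were 1.52 ± 0.801 CPM in tame forebrain (SD, n = 10), 4.53 ± 3.98 in aggressive forebrain (SD, n = 12), 21.4 ± 3.43 in aggressive cortex (SD, n = 12) and 25.7 ± 10.4 in tame cortex (SD, n = 12). In both regions the lines lay within the larger SD of each other, but further apart than the smaller SD. The larger SDs include the 4 high forebrain libraries and the 5 tame cortex libraries.

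With all libraries the line difference of ENSCAFG00000016368 was -1.59 (log2, SE 0.45) in the forebrain, and it was -0.37 (SE 0.29) without those 4. In the cortex it was 0.27 (log2, SE 0.16), and -0.17 (SE 0.092) without the 5 tame cortex libraries, a change of sign. All 5 of these lay above the other 7 tame libraries, at 25.0 to 48.8 CPM against at most 22.2 CPM. The region dependence of -1.84 was -1.41 (SE 0.46) without the 5, -0.63 (SE 0.32) without the 4, and -0.23 (SE 0.27) without both sets.

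The level of cortex genes in each forebrain library was taken as the mean log2 CPM of the 100 genes with the largest excess in cortex over forebrain. This list came from the same libraries and left out the 6 genes. In the 4 high aggressive forebrain libraries this level was 2.33 to 2.59, and in the other 8 it was 2.28 to 4.05. Cortex libraries held 5.38 to 5.94. The 4 libraries thus lay within the range of the other 8, near its low end. Aggressive ID537, ID529, ID531 and ID539 lay as low, at 2.28, 2.36, 2.43 and 2.44. They held 1.42, 2.03, 0.696 and 1.13 CPM of ENSCAFG00000016368. The forebrain libraries with the highest level, tame ID486 (4.10) and aggressive ID533 (4.05), held 1.31 and 2.0 CPM of ENSCAFG00000016368. The part of the cortex-gene level in the values of this gene was not tested.

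**Figure D3:**
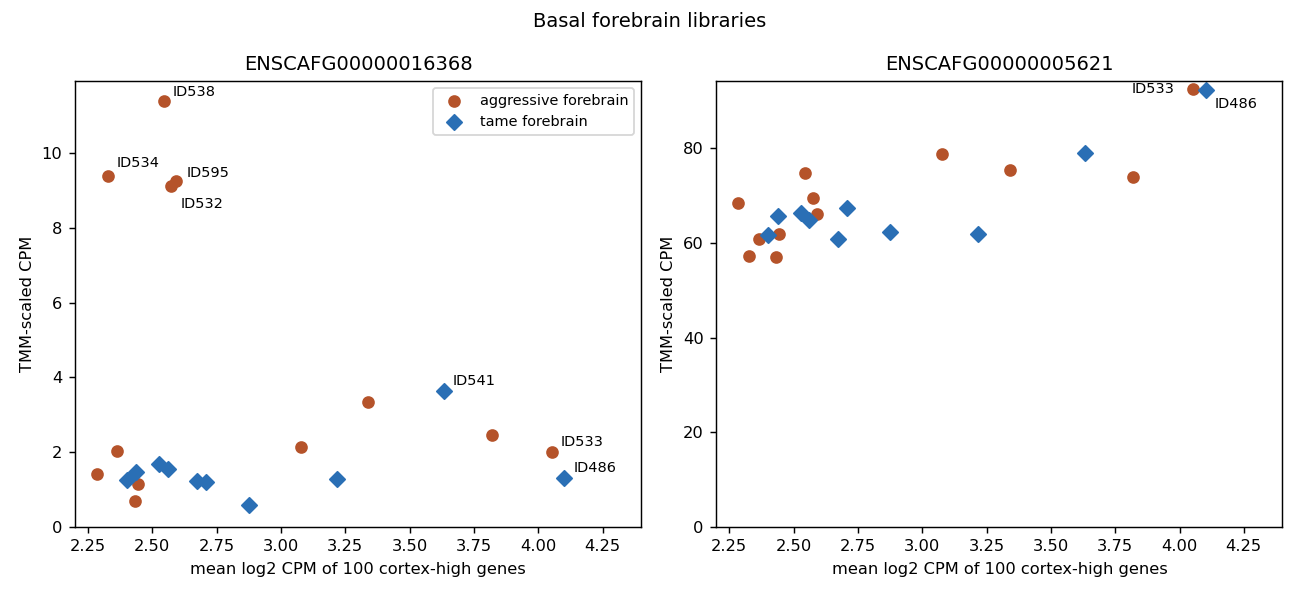
Mean log2 CPM of 100 cortex-high genes (x axis) against the CPM of ENSCAFG00000016368 (left) and ENSCAFG00000005621 (right) in 12 aggressive (circles) and 10 tame (diamonds) basal forebrain libraries. ENSCAFG00000016368 is highest in 4 aggressive libraries with low cortex-gene levels, as other aggressive libraries also have. ENSCAFG00000005621 is highest in ID486 and ID533, which have the highest cortex-gene levels.

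ENSCAFG00000005621 was also higher in the cortex. Aggressive cortex libraries ran from 121 to 198 CPM (median 155) and tame cortex libraries from 164 to 296 CPM (median 208). All 12 tame cortex libraries lay above the aggressive median, and 7 lay above the highest aggressive library. Aggressive forebrain libraries ran from 57.1 to 92.4 CPM (median 68.9) and tame forebrain libraries from 60.9 to 92.4 CPM (median 65.2). The regions did not overlap, and within the forebrain the lines overlapped almost fully.

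Means of ENSCAFG00000005621 were 68.2 ± 9.96 CPM in tame forebrain (SD, n = 10), 69.7 ± 10.2 in aggressive forebrain (SD, n = 12), 155 ± 19.6 in aggressive cortex (SD, n = 12) and 218 ± 42.3 in tame cortex (SD, n = 12). The forebrain means lay within 1 SD of each other, and the cortex means did not. The line difference was 0.50 (log2, SE 0.10) in the cortex and -0.04 (log2, SE 0.082) in the forebrain. Its highest forebrain libraries, ID533 and ID486 at 92.4 CPM each, were those with the highest level of cortex genes. That level averaged 2.91 ± 0.566 log2 CPM in tame (SD, n = 10) and 2.82 ± 0.608 in aggressive forebrain (SD, n = 12), and its part in the forebrain values was not tested. Without the 5 tame cortex libraries the cortex difference was 0.30 (SE 0.078) and the region dependence -0.33 (SE 0.12). The 7 remaining tame cortex libraries all lay above the aggressive median, but 2 of them above the highest aggressive library.

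ENSCAFG00000002061 had the smallest difference between regions among the 3 genes higher in cortex. Aggressive cortex libraries ran from 5.82 to 9.76 CPM (median 7.54) and tame cortex libraries from 7.29 to 15.3 CPM (median 9.59). Aggressive forebrain libraries ran from 5.38 to 8.55 CPM (median 6.45) and tame forebrain libraries from 4.28 to 7.64 CPM (median 5.53). The 4 groups overlapped, and 10 of the 22 forebrain libraries lay below the lowest cortex library.

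Means of ENSCAFG00000002061 were 5.84 ± 1.10 CPM in tame forebrain (SD, n = 10), 6.57 ± 0.897 in aggressive forebrain (SD, n = 12), 7.58 ± 1.02 in aggressive cortex (SD, n = 12) and 10.4 ± 2.43 in tame cortex (SD, n = 12). The first 3 means lay within the larger SD of their neighbours, and the cortex means were further apart. The line difference was 0.46 (log2, SE 0.12) in the cortex and -0.18 (log2, SE 0.11) in the forebrain. Without the 5 libraries it was 0.30 (SE 0.11) in the cortex, and the region dependence was -0.47 (SE 0.15). Tame cortex ID181, which was not one of the 5, held 13.3 CPM, as high as ID187.

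ENSCAFG00000015302 was the least counted of the 6 in the cortex, with 11 to 66 counts per library. Aggressive cortex libraries ran from 1.05 to 3.77 CPM (median 2.49) and tame cortex libraries from 2.61 to 6.60 CPM (median 3.49). All 12 tame cortex libraries lay above the aggressive median, and 4 above the highest aggressive library, all 4 among the 5. Aggressive forebrain libraries ran from 5.01 to 8.36 CPM (median 6.37) and tame forebrain libraries from 4.03 to 7.33 CPM (median 5.72). The forebrain was higher in both lines, with tame cortex ID191 at 6.60 CPM as the only cortex library above 4.57 CPM.

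Means of ENSCAFG00000015302 were 2.41 ± 0.654 CPM in aggressive cortex (SD, n = 12), 3.74 ± 1.09 in tame cortex (SD, n = 12), 5.81 ± 0.983 in tame forebrain (SD, n = 10) and 6.38 ± 0.898 in aggressive forebrain (SD, n = 12). The forebrain means lay within 1 SD of each other, and the other neighbours were further apart than the larger SD. The line difference was 0.63 (log2, SE 0.17) in the cortex and -0.14 (log2, SE 0.10) in the forebrain. Without the 5 libraries the cortex difference was 0.41 (SE 0.16) and the region dependence -0.53 (SE 0.18). The 7 remaining tame cortex libraries ran from 2.61 to 3.70 CPM, all above the aggressive median and below the highest aggressive library.

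ENSCAFG00000004011 moved most when the 5 libraries were left out, apart from ENSCAFG00000016368. Aggressive cortex libraries ran from 5.32 to 7.91 CPM (median 7.30) and tame cortex libraries from 6.87 to 16.0 CPM (median 9.17). The highest tame values, 16.0 and 15.8 CPM, were in ID187 and ID191, the cortex libraries with the lowest TMM factors (0.704 and 0.726). Aggressive forebrain libraries ran from 9.16 to 13.4 CPM (median 11.4) and tame forebrain libraries from 8.01 to 13.4 CPM (median 10.6). All aggressive cortex libraries lay below all forebrain libraries, whereas tame cortex spanned both levels.

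Means of ENSCAFG00000004011 were 6.99 ± 0.860 CPM in aggressive cortex (SD, n = 12), 10.2 ± 3.21 in tame cortex (SD, n = 12), 10.6 ± 1.54 in tame forebrain (SD, n = 10) and 11.3 ± 1.24 in aggressive forebrain (SD, n = 12). Neighbours lay within the larger SD of each pair, but the cortex means were further apart than the smaller SD, 0.860. The larger cortex SD includes the 5 tame cortex libraries. Of the 12 tame cortex libraries, 8 lay above the highest aggressive one, 5 of them among the 5. The line difference was 0.55 (log2, SE 0.14) in the cortex and -0.11 (log2, SE 0.085) in the forebrain. Without the 5 libraries it was 0.23 (SE 0.11) in the cortex, and the region dependence was -0.33 (SE 0.13). The median of the 7 remaining tame cortex libraries was 7.85 CPM, against an aggressive median of 7.30 CPM, with ID185 at 11.5 CPM as the highest.

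**Figure D4:**
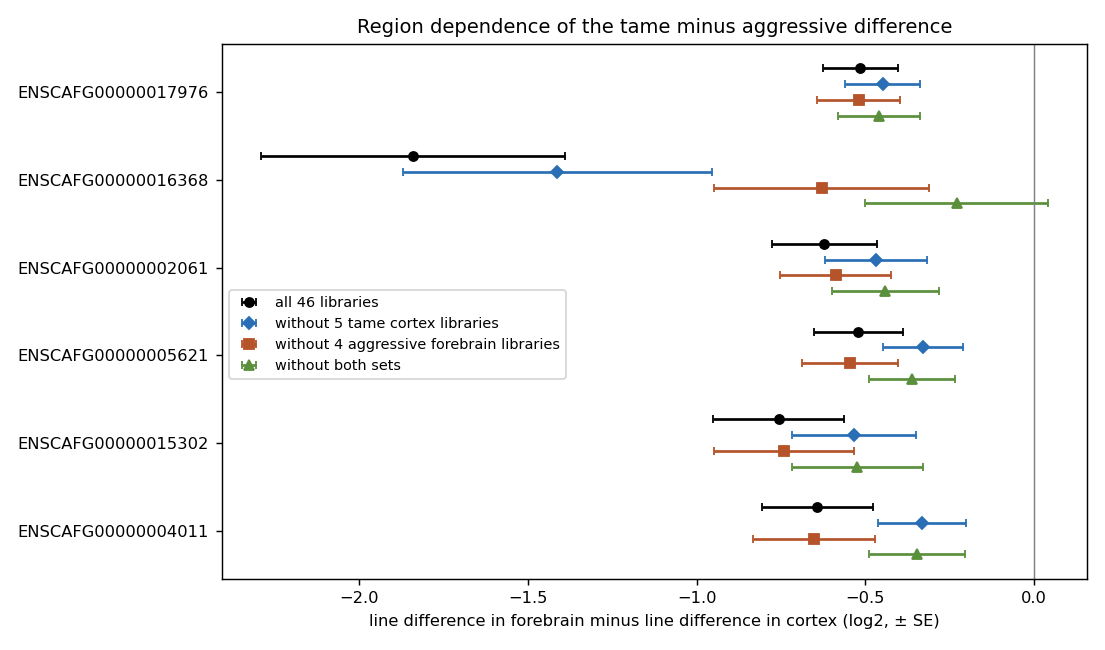
Line difference in forebrain minus line difference in cortex (x axis, log2, points with bars of ± 1 SE) for the 6 genes (y axis), with all 46 libraries, without the 5 tame cortex libraries, without 4 aggressive forebrain libraries, and without both sets. Every estimate is below 0. ENSCAFG00000016368 moves from -1.84 to -0.23, and ENSCAFG00000017976 stays between -0.52 and -0.45.

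The lines overlapped in both regions for all 6 genes. Of all genes, 0.00788% had no overlap between the lines in the cortex and 0% in the forebrain. In the cortex, in a contrast the choice of genes used, 2 of 6 passed an adjusted p of 0.05, ENSCAFG00000017976 (0.0321, edgeR) and ENSCAFG00000005621 (0.0261), beside 0.433% of all genes. Without the 5 tame cortex libraries 0 of 6 passed, beside 0.235% of all genes, and 5 of 6 had an unadjusted p under 0.05, beside 7.09% of all genes. In the forebrain 0 of 6 passed by edgeR, beside 0.0929% of all genes, and 1 of 6, ENSCAFG00000016368, had an unadjusted p under 0.05, beside 11.5% of all genes. DESeq2 called 0 of 6 there.

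Without the 5 tame cortex libraries, the 6 estimates of region dependence remained negative and ran from -1.41 to -0.33, with a median of -0.46 against 0.01 over all genes. None passed an adjusted p of 0.05 (edgeR, smallest adjusted p = 0.791), and 6 of 6 had an unadjusted p under 0.05, beside 3.19% of all genes called in that direction. By p-value ENSCAFG00000017976 ranked first, ENSCAFG00000002061 ranked 32, ENSCAFG00000016368 ranked 39 and ENSCAFG00000015302 ranked 69. ENSCAFG00000005621 ranked 98, and ENSCAFG00000004011 came last of the 6. These 41 libraries were part of the choice of the genes, so these values are not an independent check.

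The difference between regions, averaged over lines, is a contrast the choice of genes did not use. Because the groups vary unequally, above all tame cortex, it is not fully independent of that choice. All 6 genes differed between regions, beside 63.9% of all genes called, so the count of 6 is not particular to them. ENSCAFG00000015302 was higher in forebrain by 1.02 (log2, SE 0.097, edgeR adjusted p = 1.05e-12), ENSCAFG00000004011 by 0.38 (SE 0.082, edgeR adjusted p = 0.000103) and ENSCAFG00000017976 by 0.34 (SE 0.055, edgeR adjusted p = 9.5e-07). Those 3 are set beside 33.8% of all genes called higher in forebrain. The other 3 were lower in forebrain, as 30.2% of all genes were. ENSCAFG00000016368 had a difference of -3.18 (SE 0.24, edgeR adjusted p = 5.33e-16), ENSCAFG00000005621 of -1.41 (SE 0.068, edgeR adjusted p = 1.64e-22) and ENSCAFG00000002061 of -0.52 (SE 0.078, edgeR adjusted p = 1.42e-07). Forebrain and cortex libraries did not overlap for ENSCAFG00000016368 and ENSCAFG00000005621, beside 5.84% of all genes. Without the 5 tame cortex libraries 6 of 6 passed again, beside 74.0% of all genes. ENSCAFG00000004011 then had a difference of 0.57 (SE 0.066, edgeR adjusted p = 3.96e-10), against 0.38 with all libraries, and ENSCAFG00000016368 of -2.93 (SE 0.23, edgeR adjusted p = 1.2e-14), against -3.18. Each region had its own count table, and any technical difference between the tables would enter these values.

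Read by line, the genes higher in forebrain had a smaller regional difference in tame foxes, and the genes higher in cortex a larger one, which the sign of the region dependence fixes. For ENSCAFG00000017976 the forebrain minus cortex difference was 0.59 (log2, SE 0.077) in aggressive and 0.08 (SE 0.080) in tame foxes. For ENSCAFG00000004011 it was 0.70 (SE 0.11) and 0.05 (SE 0.12). For ENSCAFG00000015302 it was 1.40 (SE 0.14) in aggressive and 0.65 (SE 0.14) in tame foxes. For ENSCAFG00000005621 it was -1.15 (SE 0.092) in aggressive and -1.67 (SE 0.099) in tame foxes. For ENSCAFG00000002061 it was -0.21 (SE 0.11) and -0.83 (SE 0.11), and for ENSCAFG00000016368 -2.26 (SE 0.30) and -4.10 (SE 0.36).

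Without the 5 tame cortex libraries the regional difference in tame foxes was 0.40 (log2, SE 0.10) for ENSCAFG00000004011, about as large as its average over lines with all libraries and well above the 0.05 it had there. It was 0.18 (SE 0.086) for ENSCAFG00000017976, 0.91 (SE 0.14) for ENSCAFG00000015302 and -0.64 (SE 0.12) for ENSCAFG00000002061. It was -1.44 (SE 0.090) for ENSCAFG00000005621 and -3.64 (SE 0.36) for ENSCAFG00000016368. The differences in aggressive foxes, refitted with the same 41 libraries, were 0.74 (SE 0.084), 0.63 (SE 0.071), 1.44 (SE 0.12), -0.17 (SE 0.097), -1.11 (SE 0.076) and -2.23 (SE 0.28) in the same order of genes. The tame values of all 6 genes thus lay closer to the aggressive ones than with all libraries.

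Variation within groups was not shared strongly among the 6 genes. After the mean of each line and region group was removed, the 15 pairs of genes correlated between 0.01 and 0.42 over 46 libraries (Pearson, median 0.22), all positive. Over the 41 libraries without the 5, they ran from -0.30 to 0.28 (median -0.12), and 5 of 15 were positive. All genes of a library share that library's depth and preparation, so these are descriptions. The highest pair in both cases was ENSCAFG00000017976 with ENSCAFG00000002061.

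For each gene, the gene outside the 6 with the most similar variation within groups was found by the same correlation. Each r is thus the highest over all genes of the joint fit. How high such a maximum would be among unrelated genes was not tested. Over 46 libraries ENSCAFG00000004011 was nearest to ENSCAFG00000032344 (r = 0.87), ENSCAFG00000005621 to ENSCAFG00000001310 (r = 0.78) and ENSCAFG00000016368 to ENSCAFG00000008380 (r = 0.73). ENSCAFG00000015302 was nearest to ENSCAFG00000003882 (r = 0.71), ENSCAFG00000017976 to ENSCAFG00000013491 (r = 0.66) and ENSCAFG00000002061 to ENSCAFG00000018497 (r = 0.65). Without the 5 libraries ENSCAFG00000016368 kept its nearest gene (r = 0.71) and the others changed, to ENSCAFG00000006072 for ENSCAFG00000004011 (r = 0.75), ENSCAFG00000008302 for ENSCAFG00000005621 (r = 0.74), ENSCAFG00000009170 for ENSCAFG00000017976 (r = 0.68), ENSCAFG00000012528 for ENSCAFG00000015302 (r = 0.66) and ENSCAFG00000016467 for ENSCAFG00000002061 (r = 0.58). ENSCAFG00000008302 had r = -0.17 with ENSCAFG00000005621 over all 46 libraries, so that likeness holds outside the 5 libraries and not with them. In the 4 high aggressive forebrain libraries ENSCAFG00000008380 held 29.8 to 46.3 CPM (median 36.5), within the 16.7 to 50.3 CPM of the other 8 (median 24.2). In tame cortex it was higher in all of the 5 libraries than in the other 7, at 42.2 to 90.5 against 32.5 to 38.5 CPM, as ENSCAFG00000016368 was.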

How the data were processed

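The authors deposited 1 table of estimated counts per dog gene for each region, not normalized. The submitters' processing notes name the dog build canFam3 and CASAVA 1.8.2, FastQC, Trimmomatic, BWA, bedtools and edgeR, without roles. How reads shared between genes were counted is not given in the sources used here.

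Counts were rounded. The joint fit covered 46 libraries and 12695 genes of both tables (edgeR 4.0.16 in R 4.3.3, filterByExpr with a minimum count of 10, TMM, quasi-likelihood F-test with robust estimates and 1 mean per group). Line differences within a region were fitted on its own table. P-values were adjusted over all genes by the Benjamini-Hochberg method, with a threshold of 0.05. Log2 CPM used a prior count of 2. The fit was tested on simulated data. Alternatives used limma 3.58.1, DESeq2 1.42.0, other scaling and filters, and left-out libraries.

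The members and lists were chosen with earlier results of these data known. Genes named were the 6 members, the nearest gene of each by correlation, and the genes next to the members in order of p-value. Each library of a group has its own identifier, but the labels do not state that each identifier stands for a separate fox. P-values then measure only the spread between libraries.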

Additional observations from a re-analysis of the deposited data

Results flagged for a closer look

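For ENSCAFG00000016368, tame forebrain library ID541 stood at 3.64 CPM, far from the next of the 10 tame forebrain libraries at 1.69 CPM. The gap was 0.634 of the group's range, above Dixon's 95% critical value of 0.466. One such check was made for each of the 6 genes, and chance flags about 1 in 20 groups. Without ID541 the forebrain line difference of this gene was -1.80 (log2) and its region dependence -2.05, against -1.59 and -1.84 with it. The level of the 100 cortex-high genes in ID541 was 3.63 mean log2 CPM, within a tame forebrain range of 2.40 to 4.10. Tame ID486 (4.10) and ID491 (3.22) held 1.31 and 1.29 CPM of ENSCAFG00000016368. The part of this level in the value of ID541 was not tested.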

How the results depend on the processing

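All 6 genes kept a negative region dependence in the 11 other settings and in the 46 fits that each left out 1 library. The genes were chosen for a negative value in these libraries, so the kept sign is not an independent check. The setting that kept all genes with at least 1 count tested the same 12695 genes as the main joint fit. DESeq2 called 1 of the 6, beside 2 of 12695 genes. Leaving out 1 library gave 0 to 1 of the 6, beside 0 to 2 of all genes, against 0 of the 6 with all libraries. Limma-voom with a replicate block over 20 pairs of libraries that share the last 2 digits of their identifier called 0 of the 6, as it did with no block. The block's consensus correlation was 0.0191, and the within-group correlations of the pairs ran from -0.266 to 0.324. Of the 20, 14 were over 0.1. Each pair was a cortex and a forebrain library of the same line. Unmatched libraries were not compared, so these correlations cannot decide whether the digits pair the libraries. The labels state no pairing, and the main fit treated all 46 libraries as independent. The difference between regions passed the threshold for 6 of 6 genes in all of these settings and fits.

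In the cortex, 2 of the 6 passed the threshold between the lines with all libraries. The count was 1 with unweighted limma-voom, beside 40 of 12705 genes called. It was 0 without the 5 tame cortex libraries, beside 30 of 12782. With 1 library left out it was 1 to 3, beside 21 to 141 of all genes called. Calls over all genes thus moved as well, so the gains and losses that follow are not particular to the 6. ENSCAFG00000017976 lost its call without ID182, ID190, ID191, ID229, ID230, ID231, ID232, ID233, ID234, ID236, ID237, ID239 or ID240 (adjusted p up to 0.0682, edgeR), and ENSCAFG00000005621 without ID186 (0.0537). ENSCAFG00000004011 gained one without ID181 (0.0479) and ENSCAFG00000002061 without ID189 (0.0420) and with upper-quartile scaling (0.0481). Genes with a negative cortex difference numbered 1 in place of 0 with limma-voom quality weights and without the 5, in both cases ENSCAFG00000016368, at -0.11 and -0.17. In the forebrain 0 of 6 passed in every setting and fit, and 5 to 6 of the differences were negative with 1 library left out, the exception being ENSCAFG00000005621, which ran from -0.10 without ID486 to 0.0027 without ID533. The nearest gene was the same for 1 of 6 without the 5 libraries and for 2 of 6 with Spearman's correlation. DESeq2 gave no adjusted p in the cortex for 4 of the 6. Over all genes, calls between the lines in the cortex numbered 55, but 898 with DESeq2, 163 with quality weights, 86 with upper-quartile scaling and 30 without the 5. In the forebrain they numbered 12, but 54 with DESeq2 and 3 without the 4 aggressive libraries, and for region dependence 0, but 2 with DESeq2 and 1 with the block. ENSCAFG00000016368 had 6 to 28 counts per library in tame forebrain, which limits its precision there. Apart from the changes that follow from leaving libraries out, the cause was not tested.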
